A study of Mus musculus with 8 samples.

Results

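The 38 genes described here encode the enzymes and carriers of milk fat synthesis and fatty acid uptake. They were chosen by name from the 55933 genes of the deposited expression table, and all 38 have a row in it. By role, 10 belong to de novo fatty acid synthesis and its control, 9 to elongation and desaturation, 6 to activation, 10 to triglyceride assembly and 3 to uptake.

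The samples were mammary epithelium of female C57BL/6 mice at pregnancy day 14.5, profiled by RNA-seq in 4 control and 4 Bmpr1a cKO libraries, 1 mouse each. The cKO mice were K14-rtTA;teto-Cre;Bmpr1a fl/fl animals, in which doxycycline in the drinking water switches on Cre in K14-positive cells and deletes the BMP receptor gene Bmpr1a in the myoepithelial layer. Controls were littermates, labelled wild type in the sample titles, and which of the 3 alleles they carried and whether they drank doxycycline are not given in the sources used here. Fat was taken out by enzymatic digestion of the gland and erythrocytes by lysis. RNA came from the whole unsorted preparation, so luminal cells, which make the milk, and myoepithelial cells were measured together.

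During pregnancy, alveolar luminal cells take on the capacity to make triglyceride for the milk fat globule. Fatty acids are built from cytosolic acetyl-CoA by acetyl-CoA carboxylase and fatty acid synthase, and in the mammary gland the medium-chain thioesterase Olah ends the chain early, which gives milk its short and medium chains. Longer fatty acids enter from blood lipoproteins after cleavage by lipoprotein lipase. Both are joined to coenzyme A, elongated or desaturated, and esterified stepwise onto glycerol phosphate in the endoplasmic reticulum. The comparison asks how the RNA of these steps differed when Bmpr1a was deleted in the neighbouring myoepithelial layer.

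Levels are FPKM (fragments scaled to gene length and library size), so they may be compared between genes. Differences are log2 fold changes of FPKM + 1, cKO minus control, from limma's moderated linear model over 15143 genes, those whose mean FPKM reached 0.5. A gene passed the test at a Benjamini-Hochberg adjusted p under 0.05. The unadjusted p under 0.05, the threshold named in the methods of the study, is given as a wider count. Between 16123108 and 19896988 reads fell on genes in each library, and a member had between 93 and 13108 reads. Bmpr1a itself lay between 8.74 and 11.7 FPKM in controls and between 10.2 and 12.03 FPKM in cKO libraries, and the groups overlapped. RNA of the whole preparation thus did not show the deletion. The paper reported less BMPR1a protein and less phosphorylated Smad in isolated epithelial cells of cKO mice at this day. It also found BMPR1a in luminal cells, outside the layer in which the gene was deleted. Markers of luminal cells (Krt8, Krt18, Epcam) and of myoepithelial cells (Krt5, Krt14, Acta2) were present in every library. In such bulk samples, more cells of a type and more RNA per cell cannot be told apart.

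De novo synthesis and activation held all the members that passed the test. Acaca, Fasn, Olah and Me1 of de novo synthesis and Acsl1 of activation rose in cKO mammary epithelium, between 1.33-fold for Me1 and 2.27-fold for Olah in mean FPKM, and no member fell. That is 5 of 38 members higher, where 0.588% of all genes tested were called higher, and 0 of 38 lower, where 0.304% were called lower. At the unadjusted p, 14 members were higher (8.85% of all genes) and Agpat4 alone was lower (7.53% of all genes). The groups did not overlap for 11 members higher in cKO (6.1% of all genes) and for Agpat4, lower in cKO (4.6% of all genes). The median log2 fold change was 0.15 over the 38 members and 0.0007 over all genes tested.

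The 5 calls depended on the libraries and the fit. When any single control library or cKO replicate 2 was left out, no member passed the test. Without cKO replicate 3, Acaca and Me1 passed. Without cKO replicate 4, Acaca, Acsl1 and Thrsp passed, and without cKO replicate 1, all 5 and Acsl4 did. In each of these fits all 5 genes kept an unadjusted p under 0.05 and a higher level in cKO, with the largest adjusted p at 0.0977 (Olah, without control replicate 4). With the same 8 libraries, Me1 alone passed with no filter on low values, and Acsl1 and Me1 alone passed under a replicate block, where Acaca, Fasn and Olah had limma adjusted p values of 0.0531, 0.0661 and 0.0633. With replicates 1 and 2 against 3 and 4 as a block, Thrsp, Fads1 and Acsl4 passed as well (limma adjusted p = 0.0418, 0.0283 and 0.0417). The calls over all genes fell from 135 to between 0 and 78 in the fits with 1 library left out.

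**Figure D1:**
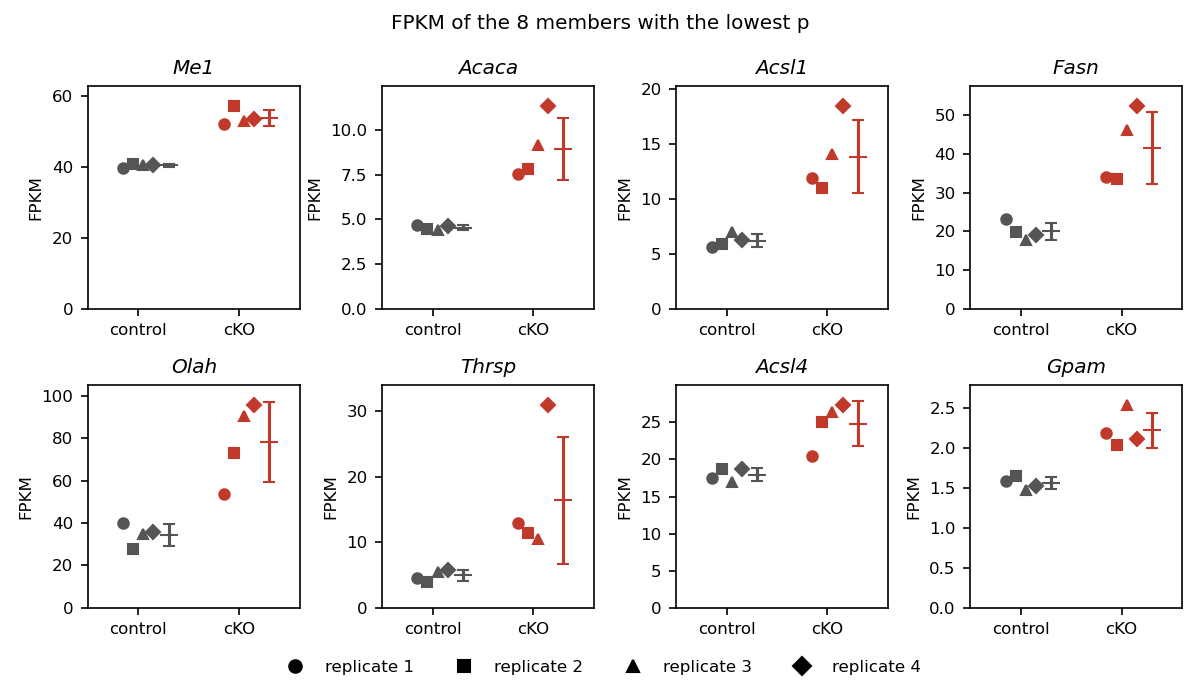
FPKM (vertical axes, linear, from 0) of the 8 members with the lowest p in each library; marker shapes give the replicate, and the bars beside the points are mean ± SD of 4 libraries. In all 8 genes every cKO library lies above every control library, with Me1 the tightest and Thrsp carrying 1 cKO library at 30.9 FPKM.

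Acaca encodes acetyl-CoA carboxylase 1, which makes the malonyl-CoA that fatty acid synthase uses. It was at 4.66, 4.47, 4.39 and 4.64 FPKM in control replicates 1 to 4, and at 7.55, 7.80, 9.16 and 11.3 FPKM in cKO replicates 1 to 4. Every cKO library was higher than every control, and the controls lay close together while the cKO libraries spread. Its log2 fold change was 0.83 (SE 0.11, limma adjusted p = 0.0268), or 1.97-fold in mean FPKM (4.54 ± 0.132 against 8.96 ± 1.73, SD, n = 4 each).

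Fasn encodes fatty acid synthase, the multifunctional enzyme that builds the chain. It was at 23.2, 19.8, 17.8 and 19.1 FPKM in controls and at 34.1, 33.5, 46.3 and 52.4 FPKM in cKO. The groups did not overlap, and cKO replicates 3 and 4 were higher than replicates 1 and 2. Its log2 fold change was 1.00 (SE 0.15, limma adjusted p = 0.0313).

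Olah, the thioesterase of medium-chain milk fatty acids, was at 39.9, 27.6, 34.7 and 35.6 FPKM in controls and at 53.6, 73.0, 90.3 and 95.3 FPKM in cKO. Again the groups did not overlap, with cKO replicates 3 and 4 the highest. Its log2 fold change was 1.14 (SE 0.18, limma adjusted p = 0.034). Its mean level was 34.4 ± 5.09 FPKM in controls and 78.1 ± 18.9 FPKM in cKO, where it stood beside the 83.3 ± 7.46 FPKM of Acly (SD, 4 libraries each).

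Me1, the cytosolic malic enzyme that supplies NADPH for the chain, was at 39.7, 40.7, 40.6 and 40.4 FPKM in controls and at 52.0, 57.0, 52.8 and 53.4 FPKM in cKO. Both groups were tight and lay apart, so that a smaller difference had the lowest p of the 38 members. Its log2 fold change was 0.41 (SE 0.05, limma adjusted p = 0.0266). With FPKM rescaled to the same sum in each library, Me1 was at 0.35 with adjusted p = 0.0737. A low antisense neighbour, A330041J22Rik, shares exon sequence with Me1 and had at most 33 reads, against at least 2618 for Me1.

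Thrsp encodes Spot 14, a small acidic protein tied to lipogenesis in mammary gland and liver. It was at 4.56, 3.98, 5.48 and 5.84 FPKM in controls and at 12.9, 11.4, 10.6 and 30.9 FPKM in cKO. It had the largest log2 fold change of the members, 1.42 (SE 0.30), but did not pass the test (limma adjusted p = 0.0666). The library of cKO replicate 4 stood far above the other 3, and without it the log2 fold change was 1.09 and the adjusted p 0.0381.

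The other 5 genes of this step overlapped between groups. Slc25a1, which exports citrate from mitochondria, ran from 12.7 to 20.1 FPKM in controls and from 14.9 to 20.8 in cKO. Acly, which cleaves that citrate to cytosolic acetyl-CoA, ran from 66.5 to 81.5 FPKM and from 76.7 to 92.7, with a log2 fold change of 0.16 (95% interval -0.05 to 0.36). Acacb, the carboxylase of the mitochondrial surface that restrains fatty acid oxidation, was the lowest member at 0.682 ± 0.0564 and 0.879 ± 0.268 FPKM. Thus Slc25a1 and Acly, the steps that deliver acetyl-CoA, had cKO to control ratios of 1.09 and 1.12 in mean FPKM, and Acaca and Fasn, which follow them, had 1.97 and 2.08. Srebf1, the sterol-responsive transcription factor of lipogenic genes, had a log2 fold change of 0.16 (95% interval -0.09 to 0.42), and its exons overlap those of the well-expressed Rai1 on the other strand. Mid1ip1, a relative of Thrsp that promotes carboxylase activity, was at -0.09 (95% interval -0.40 to 0.21).

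Because lipogenic genes are often described by sterol response and CCAAT sequences upstream of their start, the windows of 3 members are shown, from RefSeq on GRCm38.p6. They are those with the largest log2 fold changes among the members that passed the test, which leaves out Thrsp. The Fasn gene spans chr11:120805846-120824547, the Acsl1 gene chr8:46471037-46536051 and the Olah gene chr2:3341982-3397210. Each window is the 250 bases before an annotated start, read 5′ to 3′ on the strand of the gene. Capitals mark matches to CCAAT and to the sterol response letters TCACNCCAC on either strand.
Fasn, chr11:120824548-120824797, minus strand: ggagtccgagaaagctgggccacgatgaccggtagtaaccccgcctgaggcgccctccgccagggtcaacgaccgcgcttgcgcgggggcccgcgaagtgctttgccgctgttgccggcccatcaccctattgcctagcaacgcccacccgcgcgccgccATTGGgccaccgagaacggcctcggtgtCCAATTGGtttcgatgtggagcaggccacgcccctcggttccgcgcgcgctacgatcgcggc
Acsl1, chr8:46490716-46490965, plus strand: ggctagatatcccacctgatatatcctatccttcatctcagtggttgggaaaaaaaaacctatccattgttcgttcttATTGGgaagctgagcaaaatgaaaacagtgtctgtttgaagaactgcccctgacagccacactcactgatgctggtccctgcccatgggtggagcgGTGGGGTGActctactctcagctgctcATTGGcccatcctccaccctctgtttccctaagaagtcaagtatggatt
Olah, chr2:3366570-3366819, minus strand: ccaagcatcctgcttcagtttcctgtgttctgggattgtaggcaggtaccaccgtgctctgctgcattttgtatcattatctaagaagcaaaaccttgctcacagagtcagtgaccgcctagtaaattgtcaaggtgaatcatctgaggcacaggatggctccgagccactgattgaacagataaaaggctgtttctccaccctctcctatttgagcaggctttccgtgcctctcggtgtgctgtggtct

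The Fasn window holds CCAAT letters at positions -90, -62 and -59, counted back from the start, the last pair sharing bases. The Acsl1 window belongs to a start inside the gene model and is 1 of its windows in the RefSeq table. It holds CCAAT letters at -172 and -49 and the sterol response letters at -76. The other Acsl1 window, at the start of the gene model itself (chr8:46470787-46471036), holds neither of these and has 4 GC boxes. The Olah window, also at a start inside the gene model, holds neither sequence. Windows were found for 31 of the 38 members, 42 windows in all. Fads1, Scd1, Scd2, Fabp5, Lpl, Dgat1 and Dgat2 had none. Of the 42, 19 (45.2%) hold CCAAT letters, against 33.8% of all 32851 windows of that length. Of the 5 genes that rose, Fasn had such letters in its window, Acsl1 and Me1 in an internal window but not in the one at the start of the gene model, and Acaca and Olah had none. The only windows of Acaca and Olah lie inside their gene models, so the starts of those models were not read. The sterol response letters stand in 1 of the 42 (Acsl1) and in 1.05% of all windows. The E-box CACGTG was found at Elovl5, Lpin2 and Slc25a1, none of which passed the test, and in 6.02% of all windows. The STAT-type letters TTCNNNGAA were found at Agpat1 alone and in 7.02% of all windows. The GC box GGGCGG stood in 24 of the 42 windows and in 32.7% of all. A match describes letters in the window, not binding.

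**Figure D2:**
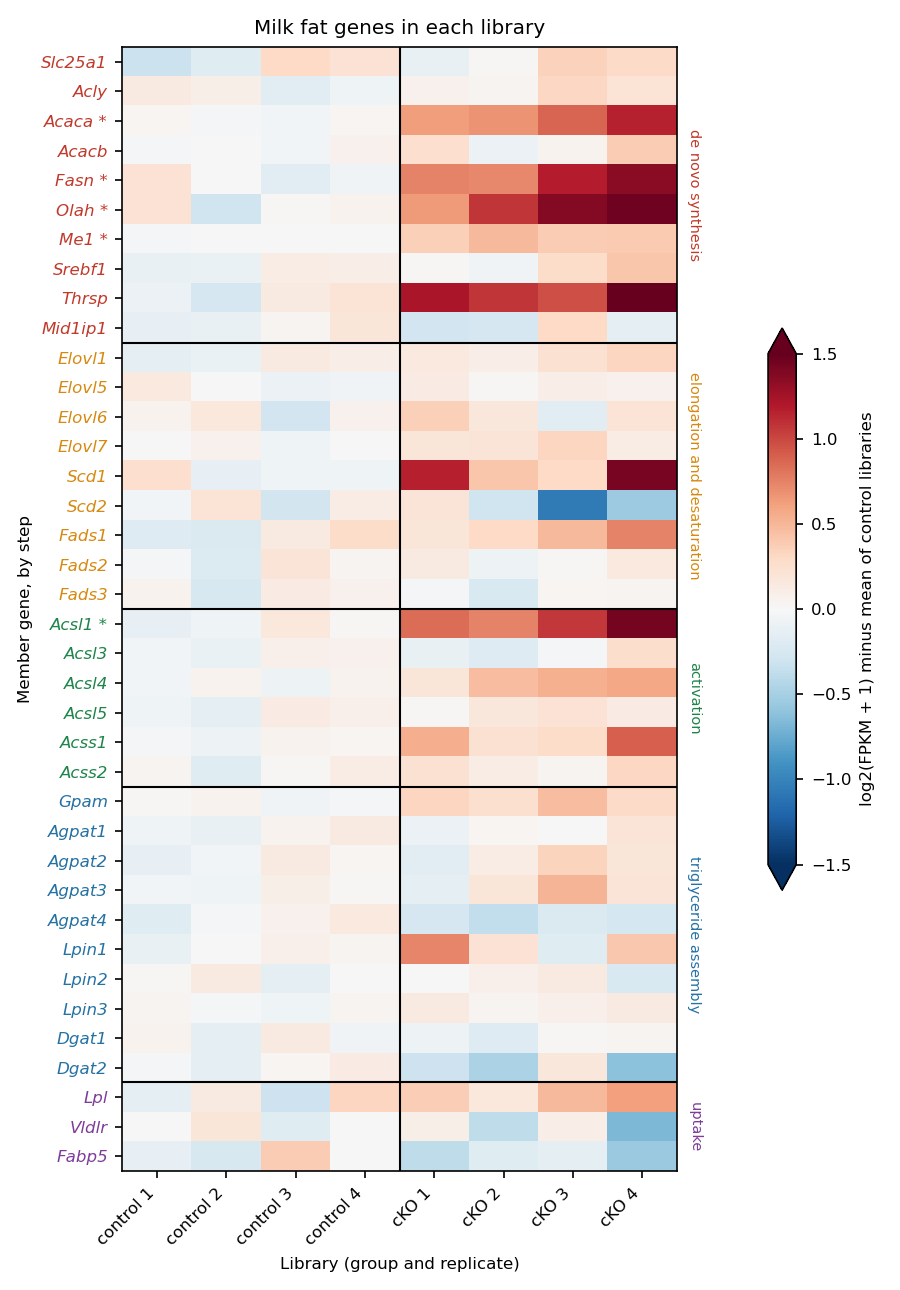
Level of each of the 38 members (rows, by step) in the 8 libraries (columns) as log2(FPKM + 1) minus the mean of the control libraries; red is higher, blue lower, the scale ends at 1.5 in both directions, and an asterisk marks the 5 genes that passed the test. Acaca, Fasn, Olah, Me1, Thrsp, Scd1 and Acsl1 are red in all 4 cKO libraries, and Lpin1, Acss1 and Fads1 each have a cKO library at least as red as replicates 1 and 2 of Acaca.

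Among the 9 genes of elongation and desaturation none passed the test, and Scd1, Fads1, Elovl1 and Elovl7 were higher at the unadjusted p. Of these, Scd1 kept an unadjusted p under 0.05 in every alternative fit. Fads1 lost it without control replicate 1 or 2 or cKO replicate 4 (log2 fold change from 0.32 to 0.52 with single libraries left out), and without cKO replicates 2 and 4 together. Elovl1 lost it without control replicate 1 or 2, without cKO replicate 1, 3 or 4, and without cKO replicates 2 and 4 together. Elovl1 also lost it with scaling by library totals and with empirical Bayes without trend. Elovl7 lost it when the libraries were scaled to equal sums or by their totals (log2 fold changes 0.14 and 0.15). Scd1, the stearoyl-CoA desaturase that makes oleate, was at 63.6, 48.7, 50.7 and 50.9 FPKM in controls and at 120, 71.5, 65.7 and 144 FPKM in cKO. All cKO libraries lay above all controls, cKO replicate 3 by little. The log2 fold change was 0.83 (SE 0.24, limma adjusted p = 0.144). Scd2, the desaturase prominent in brain, was much lower, at 4.78, 5.86, 3.90 and 5.45 FPKM in controls and at 5.78, 3.84, 1.86 and 3.07 FPKM in cKO. Its groups overlapped (log2 fold change -0.43, 95% interval -0.96 to 0.11). That value ran from -0.64 to -0.22 over the alternative fits. Scd2 had an unadjusted p under 0.05 only without cKO replicate 1.

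The ratio of Scd1 to Scd2, in which the scaling of a library cancels, was 13.3, 8.31, 13.0 and 9.33 in controls and 20.8, 18.6, 35.4 and 46.9 in cKO. The groups did not overlap. The mean log2 ratio differed by 1.40, with an exact two-sided permutation p = 0.0286, the smallest that 4 against 4 libraries allow, and 0.0571 after adjustment over the 4 isoform ratios. Acaca over Acacb likewise did not overlap, from 6.12 to 7.21 in controls and from 7.59 to 13.3 in cKO (log2 difference 0.64, exact permutation p = 0.0286, adjusted 0.0571). None of the 4 ratios was under 0.05 after adjustment.

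Fads1, the delta-5 desaturase of polyunsaturated fatty acids, was at 19.5, 19.2, 24.8 and 27.5 FPKM in controls and at 25.6, 28.0, 31.96 and 38.3 FPKM in cKO. Replicates 3 and 4 were higher than 1 and 2 in both groups, and the groups overlapped. Its log2 fold change was 0.43 (SE 0.15, limma adjusted p = 0.206). Its neighbour Fads2, the delta-6 desaturase, was higher in level, at 39.5 ± 4.50 and 41.1 ± 3.03 FPKM (mean ± SD of 4), and its log2 fold change was 0.06 (95% interval -0.15 to 0.27). The log2 ratio of Fads1 to Fads2 differed by 0.38 (exact permutation p = 0.0571, adjusted 0.0762). Fads3, whose role is less settled, was at 8.77 ± 1.06 and 8.44 ± 0.766 FPKM.

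The elongases add carbon pairs in the endoplasmic reticulum. Elovl7 was at 15.7, 16.5, 14.9 and 15.5 FPKM in controls and at 17.9, 18.1, 19.8 and 16.9 FPKM in cKO, without overlap (log2 fold change 0.20, limma adjusted p = 0.17). Elovl1, which makes saturated very long chains, was at 36.7 ± 3.61 and 42.1 ± 2.87 FPKM and overlapped (log2 fold change 0.20, limma adjusted p = 0.288). Its exons overlap those of Cdc20 on the other strand, which had up to 621 reads against at least 1565 for Elovl1. Elovl6, which elongates palmitate to stearate, and Elovl5, which elongates polyunsaturated chains, had log2 fold changes of 0.14 (95% interval -0.15 to 0.44) and 0.08 (95% interval -0.07 to 0.23).

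**Figure D3:**
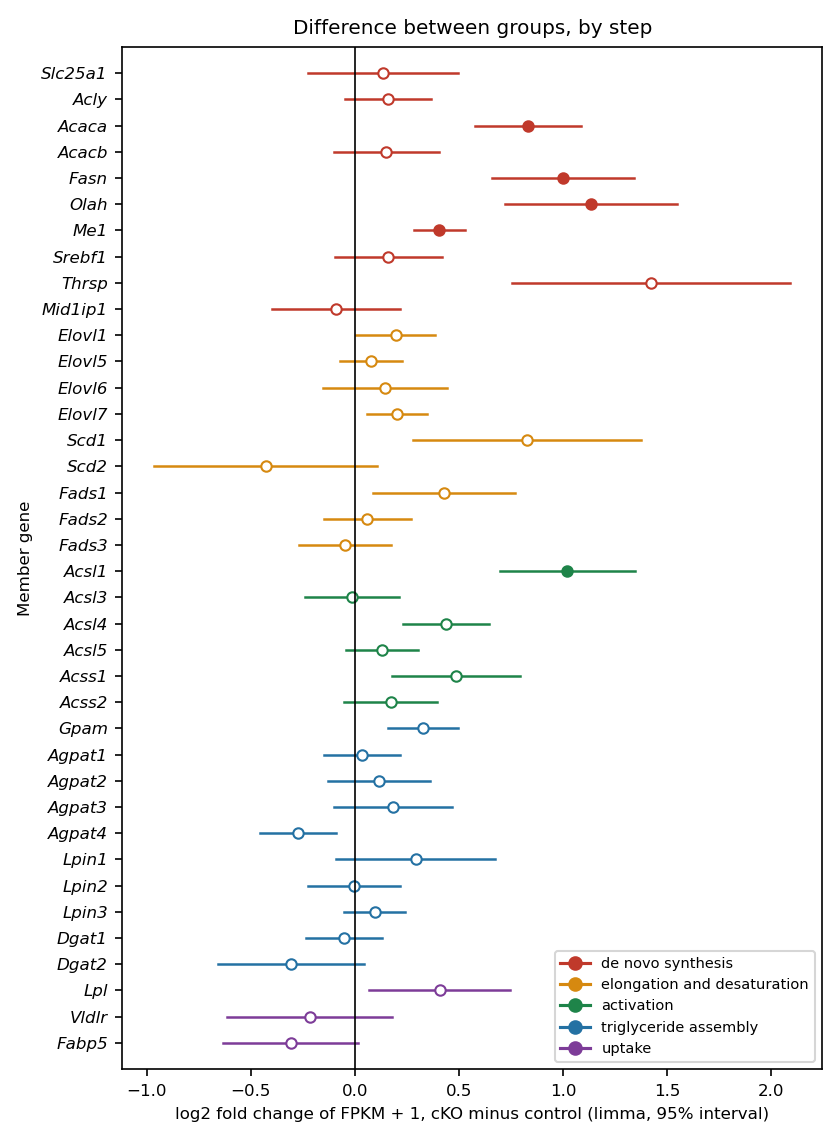
Log2 fold change of FPKM + 1 (horizontal axis, cKO minus control) with its 95% interval from limma for each of the 38 members, coloured by step; filled points passed the test at an adjusted p under 0.05. The 5 filled points lie between 0.41 and 1.14, and the intervals of the triglyceride assembly genes mostly span 0.

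Activation joins fatty acids to coenzyme A, and here Acsl1 rose. It encodes a long-chain acyl-CoA synthetase of tissues that store or burn much fat. It was at 5.61, 5.88, 7.01 and 6.27 FPKM in controls and at 11.9, 10.99, 14.0 and 18.4 FPKM in cKO. No cKO library came near the controls. Its log2 fold change was 1.02 (SE 0.14, limma adjusted p = 0.0268), or 2.23-fold in mean FPKM. The chain-length relatives differed in size. Acsl4, which prefers arachidonate, was at 17.4, 18.7, 17.0 and 18.7 FPKM in controls and at 20.4, 25.1, 26.4 and 27.3 FPKM in cKO, without overlap. It did not pass the test (log2 fold change 0.44, SE 0.09, limma adjusted p = 0.0687).

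Acsl3, a synthetase of lipid droplets, was at 13.5 ± 0.859 and 13.5 ± 2.04 FPKM (mean ± SD of 4), with a log2 fold change of -0.01 (95% interval -0.24 to 0.21). Acsl5 had a log2 fold change of 0.13 (95% interval -0.04 to 0.30). Both share exon sequence with another expressed gene, Acsl3 with Utp14b and Acsl5 with Zdhhc6. In controls Acsl4, Acsl5 and Acsl3 were each at more than the level of Acsl1, and in cKO the mean of Acsl1, 13.8 ± 3.31 FPKM, was beside those of Acsl3 and Acsl5, within its spread.

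Acss1 and Acss2 activate acetate, in mitochondria and in the cytosol. Acss1 was at 8.40, 7.99, 8.86 and 8.71 FPKM in controls and at 12.9, 10.1, 10.4 and 16.6 FPKM in cKO. The groups did not overlap, with cKO replicates 1 and 4 the highest, as for Scd1, and the test was not passed (log2 fold change 0.49, SE 0.14, limma adjusted p = 0.133). Acss2 was scarce, between 0.574 and 1.21 FPKM over the 8 libraries. Its exons overlap those of Gss on the other strand, which had up to 644 reads against as few as 101 for Acss2. How many reads fell on the shared stretch was not measured.

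Triglyceride assembly showed no gene that passed the test, and its summed level was 92.4 ± 4.85 FPKM in controls and 92.1 ± 6.50 FPKM in cKO (SD, n = 4 each). The sum over de novo synthesis ran from 218 to 234 FPKM in controls and from 282 to 386 in cKO, and that over activation from 58.0 to 63.2 and from 72.5 to 94.6, both without overlap. The sum over elongation and desaturation ran from 189 to 211 and from 229 to 326 FPKM, and without Scd1 the groups overlapped (140.3 to 159.8 and 158 to 181 FPKM). The sum over uptake ran from 53.2 to 66.2 and from 50.6 to 60.9 FPKM. Gpam, a mitochondrial acyltransferase of the first step, was at 1.59, 1.65, 1.48 and 1.53 FPKM in controls and at 2.19, 2.04, 2.53 and 2.12 FPKM in cKO. The groups lay apart at this low level (log2 fold change 0.33, SE 0.07, limma adjusted p = 0.081).

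Agpat4, an acyltransferase for lysophosphatidic acid, went the other way. It was at 7.69, 8.70, 9.30 and 9.94 FPKM in controls and at 7.31, 6.67, 7.48 and 7.26 FPKM in cKO. Its groups lay just apart, and it did not pass the test (log2 fold change -0.27, SE 0.08, limma adjusted p = 0.149). Its unadjusted p was under 0.05 in every alternative except the one without cKO replicates 2 and 4. Agpat1, Agpat2 and Agpat3 of the same reaction had log2 fold changes of 0.03, 0.12 and 0.18, with intervals that span 0. The exons of Agpat2 overlap those of Egfl7 on the other strand.

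The lipins remove phosphate to give diacylglycerol. Lpin1 was at 2.58, 2.83, 3.08 and 2.96 FPKM in controls and at 5.39, 3.49, 2.40 and 4.08 FPKM in cKO. The cKO libraries lay on both sides of the controls, and the log2 fold change was 0.29 (95% interval -0.09 to 0.67). That value ran from 0.15 to 0.45 over the alternative fits. Lpin1 had an unadjusted p under 0.05 only without cKO replicate 3. Lpin2 (log2 fold change -0.01, 95% interval -0.23 to 0.21) and Lpin3 (0.09, 95% interval -0.05 to 0.24) had smaller differences.

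Dgat1 and Dgat2 make the final ester bond. Dgat1 was at 20.7 ± 1.78 FPKM in controls and 19.9 ± 1.48 in cKO (log2 fold change -0.05, 95% interval -0.23 to 0.13). Dgat2 was at 13.3, 12.2, 13.7 and 14.7 FPKM in controls and at 10.7, 9.40, 15.2 and 8.44 FPKM in cKO. Of the cKO libraries, 3 were below every control and replicate 3 was above every control (log2 fold change -0.31, 95% interval -0.66 to 0.04). Without cKO replicate 3 the log2 fold change of Dgat2 was -0.47, with an unadjusted p under 0.05, without cKO replicate 4 it was -0.20, and without cKO replicates 2 and 4 it was -0.07. The log2 ratio of Dgat1 to Dgat2 differed by 0.28 (exact permutation p = 0.2, adjusted 0.2).

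Uptake was represented by 3 genes, none of which passed the test. Lpl, the lipoprotein lipase that frees fatty acids from blood triglyceride, was at 12.1, 15.0, 10.7 and 17.2 FPKM in controls and at 17.7, 15.2, 19.4 and 21.3 FPKM in cKO. Without control replicate 1 or 3, cKO replicate 3 or 4, or cKO replicates 2 and 4 together, Lpl was not under an unadjusted p of 0.05. The groups overlapped through control replicate 4 and cKO replicate 2 (log2 fold change 0.41, SE 0.15, limma adjusted p = 0.223). Vldlr, the receptor that holds lipoproteins beside the lipase, was at 5.76, 6.70, 4.99 and 5.79 FPKM in controls and at 6.21, 4.20, 6.28 and 3.24 FPKM in cKO, with cKO replicates 2 and 4 below every control and replicates 1 and 3 within the control range. The log2 fold change of Vldlr was -0.22 (95% interval -0.62 to 0.18), and 0.09 without cKO replicates 2 and 4. Fabp5, a cytosolic fatty acid binding protein, was at 39.2 ± 7.90 and 31.2 ± 4.25 FPKM (log2 fold change -0.31, 95% interval -0.64 to 0.02). Over the alternative fits the log2 fold change of Fabp5 ran from -0.39 to -0.18, in some of them with an unadjusted p under 0.05.

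**Figure D4:**
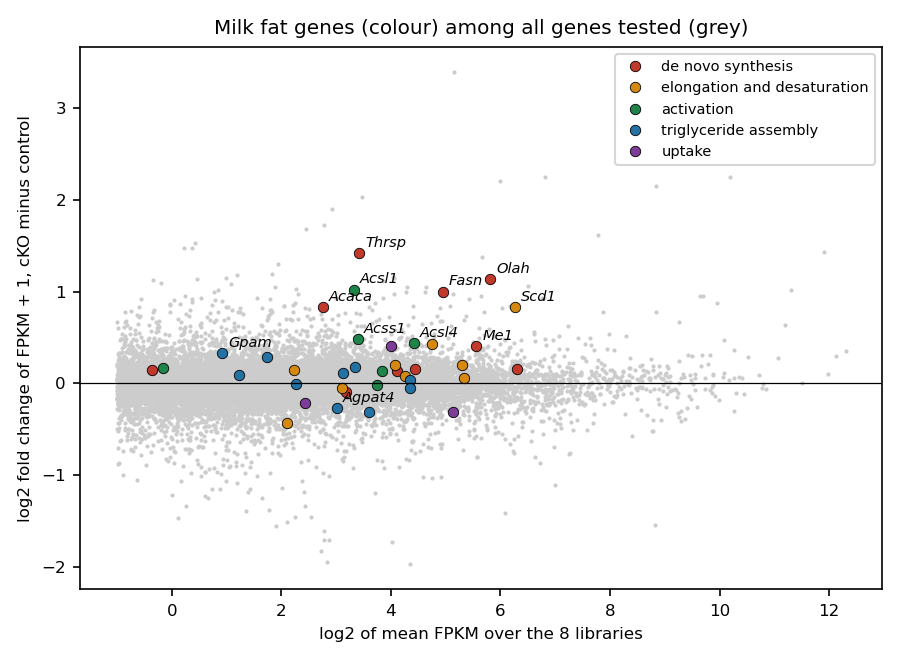
Log2 fold change of FPKM + 1 (vertical axis, cKO minus control) against log2 of mean FPKM over the 8 libraries (horizontal axis) for the 15143 genes tested (grey) and the 38 members (colour, by step); names are given for the 11 members with an unadjusted p under 0.01. The members lie at low to moderately high levels, and Thrsp has the largest log2 fold change of them, 1.42.

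Within the cKO group the members did not move as 1 block. The library of cKO replicate 4 was the highest of its group in 19 of the 38 members, replicate 3 in 13, replicate 1 in 5 and replicate 2 in 1 (Me1). The summed FPKM of the members ran from 606 to 660 in controls and from 748 to 950 in cKO, without overlap. Within replicates 1 and 2 the log2 differences were 0.64 for Acaca, 0.63 for Fasn, 0.89 for Olah, 0.43 for Me1 and 0.88 for Acsl1, and within replicates 3 and 4 they were 1.02, 1.37, 1.38, 0.38 and 1.16. Because every cKO library of these 5 genes lay above every control, a higher level within both pairs was fixed in advance. The difference was larger in replicates 3 and 4 for 4 of them.

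Genes outside the 38 that belong to the same process were read in the same fit. Of 38 other genes of fat synthesis, transport and droplets, 31 were tested, 2 rose and none fell, and 10 were higher and 2 lower at the unadjusted p, with a median log2 fold change of 0.17. Cd36, a scavenger receptor that takes up long-chain fatty acids, was at 72.2, 72.6, 81.0 and 76.9 FPKM in controls and at 127, 140, 144 and 174 FPKM in cKO (log2 fold change 0.93, SE 0.10, limma adjusted p = 0.0204). Its groups lay well apart. Fabp3, the binding protein abundant in lactating gland, was at 134, 105, 214 and 206 FPKM in controls and at 398, 618, 1019 and 963 FPKM in cKO (log2 fold change 2.15, SE 0.34, limma adjusted p = 0.0339). Fabp3 and the member Fabp5 thus had differences of opposite sign, of which that of Fabp3 passed the test.

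Of 23 regulators of lipogenesis, 22 were tested and none passed, while 5 were higher and 0 lower at the unadjusted p, and the median log2 fold change was 0.02. The lowest p values were those of Mlx, a partner of the carbohydrate response factor (7.30 to 8.54 FPKM in controls and 8.81 to 11.4 in cKO), of the retinoid X receptor Rxra (5.33 to 6.14 and 6.38 to 7.08) and of the site-2 protease Mbtps2, which releases sterol response factors (1.07 to 1.47 and 1.53 to 1.64). For all 3 the groups did not overlap. Of 22 genes of fatty acid oxidation and lipolysis, 19 were tested, 1 rose, and 7 were higher and 0 lower at the unadjusted p (median log2 fold change 0.26). The gene that rose was Abhd5, the coactivator of the triglyceride lipase Pnpla2, at 20.2, 18.6, 19.1 and 20.1 FPKM in controls and 30.3, 25.0, 24.2 and 27.4 FPKM in cKO (log2 fold change 0.43, SE 0.08, limma adjusted p = 0.0461).

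Fat cells express many of these enzymes too, so adipocyte markers were read beside them. Of 14 markers 9 were tested, 1 rose (Cidec), and 5 were higher and 0 lower at the unadjusted p (8.85% and 7.53% of all genes). Their summed FPKM ran from 103 to 155 in controls and from 136 to 184 in cKO, most of it Fabp4. The secreted adipokine Adipoq was at 0.334, 0.0836, 0.562 and 0.231 FPKM in controls and at 0.75, 1.98, 0.274 and 1.99 FPKM in cKO. Cfd, adipsin, was at 2.57, 1.19, 2.40 and 2.02 FPKM in controls and at 3.26, 19.5, 6.15 and 23.9 in cKO, and the droplet coat gene Plin1 was at most 0.371 FPKM in any library. Adipoq and Cfd, and Plin1 at 0.300 and 0.371 FPKM, were thus highest in cKO replicates 2 and 4. Adipoq lay inside the control range in cKO replicate 3, whereas Cfd, Cidec and Car3 were higher in every cKO library than in every control. The other tested markers overlapped between groups, with log2 fold changes of 0.49 (Gpd1), 0.27 (Plin4), 0.21 (Fabp4), -0.005 (Lipe) and -0.14 (Aoc3). The part of fat cells in the differences of the members was not tested. Without cKO replicates 2 and 4, a fit chosen after the data were seen, no member and no gene passed the test, and Acaca, Fasn, Olah, Me1 and Acsl1 had log2 fold changes of 0.75, 0.96, 1.01, 0.37 and 0.95, each with an unadjusted p under 0.05. At the unadjusted p that fit called 1441 genes. These members were picked from data that held the same remaining libraries. Cfd, Cidec and Car3 were above every control in cKO replicates 1 and 3 too, so the fit does not test the part of fat cells.

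Milk genes also moved with the members. Of 8 alveolar milk markers 4 rose (Csn2, Csn1s2a, Wap and Glycam1) and 7 were higher at the unadjusted p, and their summed FPKM ran from 4296 to 6511 in controls and from 10419 to 18921 in cKO, highest in replicate 4. Of 8 luminal markers none passed either threshold, with sums of 5360 to 6956 and 5281 to 7101 FPKM. Of 12 myoepithelial markers none passed the test, and 1 was higher and 4 lower at the unadjusted p. The lists for fibroblasts (8 genes), endothelium (8), macrophages (10), lymphocytes (9) and red blood cells (5) held no gene that passed, and 12 of their genes were lower and none higher at the unadjusted p. The part of these cell types in the differences of the members was not tested.

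**Figure D5:**
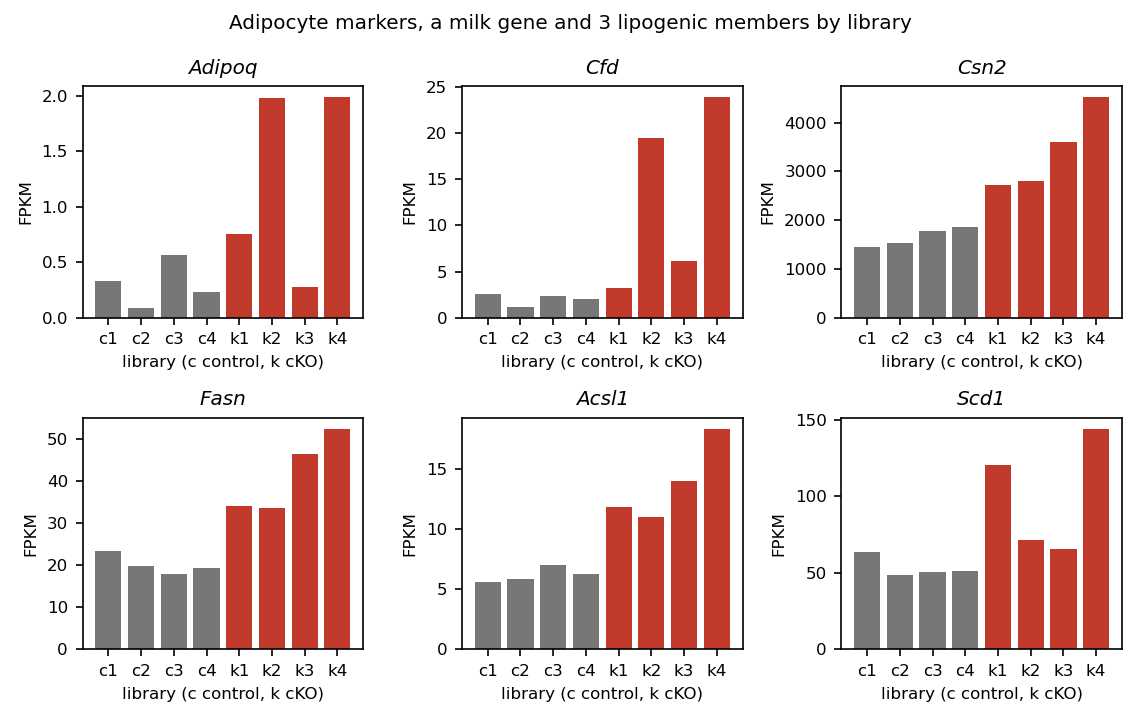
FPKM (vertical axes, linear, from 0) in the 4 control (c, grey) and 4 cKO (k, red) libraries for the adipocyte markers Adipoq and Cfd, the milk gene Csn2 and the members Fasn, Acsl1 and Scd1; each bar is 1 library. Adipoq and Cfd peak in cKO replicates 2 and 4, Csn2, Fasn and Acsl1 in replicate 4, and Scd1 in replicates 1 and 4.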

How the data were processed

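The authors prepared NEBNext Ultra libraries, used FastQC for read quality and Hisat2 with GRCm38 for mapping, and deposited FPKM for 55933 genes in 8 libraries. The labels' processing notes name StringTie 1.3.3b, featureCounts 1.5.0-p3 and build mm9. Coordinates equal GENCODE release 21 (GRCm38) for 99.68% of 55394 matched identifiers and for all 38 members, and are given as GRCm38. The deposited FPKM were whole multiples of 1 read for 100% of values (tolerance 0.01), and carry median-of-ratios size factors. Whether counting used strand is not given in the sources used here.

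The deposited unit is FPKM, so log2(FPKM + 1) was fitted with limma 3.58.1 in R 4.3.3 (empirical Bayes with trend, 15143 genes whose mean FPKM reached 0.5), and the script was tested on simulated data. The study itself used a count model, and the recovered reads were fitted as an alternative. Isoform ratios had exact permutation tests. All 38 members were tested and are named. Of the other lists, genes with adjusted p under 0.05 are named, at most 10, or otherwise the 3 with the lowest p. Gpat3 and Gpat4, relatives of the member Gpam, are named besides. Markers named singly were chosen after their values were seen. The members and lists were chosen with earlier results of these data known. In total, 19 alternatives were run: pseudocount, filter, scaling, blocks, trend, limma-voom on recovered reads, and libraries left out. Figures used Python 3.11.15 and matplotlib 3.10.9. Promoter windows are RefSeq sequences.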

Additional observations from a re-analysis of the deposited data

Results flagged for a closer look

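In a group of 4 libraries, a single library was marked where its gap to the nearest other exceeded Dixon's 95% limit. Of 76 groups (38 members in 2 groups), 2 were marked, and chance marks about 1 in 20, or 3.8 of 76. Thrsp in cKO replicate 4 was at 30.9 FPKM, and the next cKO library was at 12.9. Scd1 in control replicate 1 was at 63.6 FPKM, and the next control was at 50.9, still below every cKO library. The cause was not tested in either case.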

How the results depend on the processing

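Acaca, Fasn, Olah, Me1 and Acsl1 were higher in cKO with an unadjusted p under 0.05 in all 19 alternatives. The number of members that passed the adjusted test was 5 as reported, 1 with no filter on low values (Me1), 8 with replicates 1 and 2 against 3 and 4 as a block (Acsl4, Fads1 and Thrsp added), 8 with limma-voom (Acsl4, Gpam and Thrsp added), and 0 without cKO replicates 2 and 4, and it ran from 0 to 6 with single libraries left out. Over all genes, 135 passed as reported, 10 with no filter, 442 with that block, 252 with limma-voom (which works on recovered whole reads), 0 without cKO replicates 2 and 4, and 0 to 78 with single libraries left out. The unadjusted calls over all genes were 2480 as reported and 1441 without cKO replicates 2 and 4. The cause of these shifts was not tested, beyond the smaller number of libraries in those left out. Under a replicate block, 2 members (Acsl1 and Me1) and 50 genes passed. Deviations of same-numbered libraries correlated by 0.137, 0.11, 0.116 and 0.0797, so the labels' numbers were not taken as pairs. Every correlation between groups was positive within replicates 1 and 2 and within replicates 3 and 4 (0.0797 to 0.178), and every one across these sets was negative (-0.21 to -0.072). Control replicate 1 correlated best with its own number, control replicates 2, 3 and 4 with cKO replicates 1, 4 and 3. This block ended the adjusted calls of Acaca, Fasn and Olah and added Srebf1 (higher) and Fabp5 (lower) to the unadjusted ones, and changed no other call of a member.

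Rescaling FPKM to the same sum per library moved the median log2 fold change of all genes by -0.05. It changed the adjusted calls from 89 higher and 46 lower to 70 and 62, and library totals changed them to 79 and 92. The unadjusted calls changed from 1340 higher and 1140 lower to 788 and 1656, and to 863 and 1795. Among members the unadjusted calls were 13 higher and 3 lower with equal sums, and 12 and 3 with library totals, against 14 and 1, with Dgat2 and Fabp5 added to the lower ones and Elovl7 (both scalings) and Elovl1 (library totals) lost from the higher ones.

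Vldlr and 6 members with differences near 0 changed sign. Fads2 was at -0.000821 and Agpat1 at -0.026 with equal sums, and Agpat1 was at -0.0241 with library totals. Without cKO replicates 2 and 4, Mid1ip1 was at 0.00881, Agpat1 at -0.0445, Lpin2 at 0.0686 and Vldlr at 0.0949. With single libraries left out, Fads2 ran from -0.00735 to 0.122, Fads3 from -0.128 to 0.0118, Acsl3 from -0.105 to 0.0450, Agpat1 from -0.0185 to 0.0763 and Lpin2 from -0.0537 to 0.0708. With single libraries left out, the cKO minus control difference of the log2 ratio of Scd1 to Scd2 stayed between 1.16 and 1.599. With 4 libraries a group, the 95% intervals of Slc25a1, Srebf1, Elovl6, Agpat3 and Lpin1, which span 0, include a rise as large as that of Me1.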
